A study of Mus musculus with 8 samples.

Results

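The genes described here run the cell division cycle from G1 to mitosis. They were chosen by name, and all 46 were found among the 55401 genes of the deposited count matrix. By role they comprise 11 G1/S cyclins, cyclin-dependent kinases (CDKs) and E2F factors, 12 genes of replication licensing and DNA synthesis, and 23 genes of mitosis. Their transcripts were measured by bulk RNA sequencing in whole liver of wild type C57BL/6J mice, with 4 mice on a standard diet (control) and 4 mice fed 1% 3,5-diethoxycarbonyl-1,4-dihydrocollidine (DDC) in their diet, each for 4 weeks. DDC blocks heme synthesis, and mice fed it are used as a model of cholestatic injury with biliary fibrosis. The labels state neither sex nor age, and all 8 mice carry 1 batch label.

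In resting cells, pocket proteins of the Rb family hold E2F factors and cell cycle promoters in a repressed state. D-type cyclins with Cdk4 or Cdk6, and then E-type cyclins with Cdk2, phosphorylate the pocket proteins, and E2F factors switch on the genes of DNA replication. Later, the MuvB complex with B-Myb and Foxm1 drives the mitotic genes, largely through a promoter element named CHR, often next to CCAAT boxes bound by NF-Y. Most hepatocytes of an adult liver are quiescent and can re-enter the cycle after injury.

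Promoter sequences are shown for 7 of these genes because the sequence elements of the replication genes and the mitotic genes were compared. They are RefSeq sequences of GRCm38.p6, with 300 bases each, from 250 bases before to 50 bases after the annotated start site, and they were found for 36 of the 46 genes. The table has no entry for Ccnd1, Ccnd2, Ccne2, Mcm4, Ccna2, Cdc25c, Aurkb, Foxm1, Kif20a and Tpx2. On both strands, the letters TTTGAA were searched as CHR, CCAAT as the NF-Y box, and TTTCCCGC, TTTGGCGC, TTTCGCGC and TTTGCCGC as E2F elements. A match to letters is a description and not a bound site. The first 4 are the mitotic genes with both CHR and CCAAT that had the highest level per transcript length in DDC livers, and their capitals mark CHR and CCAAT matches. Cdc20 lies at chr4:118437294-118437593, Ccnb2 at chr9:70421505-70421804, Mki67 at chr7:135716330-135716629 and Aurka at chr2:172370521-172370820, all on the minus strand.
Cdc20: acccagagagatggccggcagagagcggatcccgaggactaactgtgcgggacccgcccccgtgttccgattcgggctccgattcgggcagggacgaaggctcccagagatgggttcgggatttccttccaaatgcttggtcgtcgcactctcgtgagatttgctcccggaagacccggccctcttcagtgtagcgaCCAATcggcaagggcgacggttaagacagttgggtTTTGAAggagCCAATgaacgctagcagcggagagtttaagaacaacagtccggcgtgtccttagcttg
Ccnb2: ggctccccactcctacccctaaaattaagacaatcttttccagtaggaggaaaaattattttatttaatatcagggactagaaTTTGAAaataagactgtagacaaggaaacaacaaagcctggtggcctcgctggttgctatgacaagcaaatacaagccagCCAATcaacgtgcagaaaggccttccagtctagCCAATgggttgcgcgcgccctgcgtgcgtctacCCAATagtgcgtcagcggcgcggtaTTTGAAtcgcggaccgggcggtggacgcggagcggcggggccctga
Mki67: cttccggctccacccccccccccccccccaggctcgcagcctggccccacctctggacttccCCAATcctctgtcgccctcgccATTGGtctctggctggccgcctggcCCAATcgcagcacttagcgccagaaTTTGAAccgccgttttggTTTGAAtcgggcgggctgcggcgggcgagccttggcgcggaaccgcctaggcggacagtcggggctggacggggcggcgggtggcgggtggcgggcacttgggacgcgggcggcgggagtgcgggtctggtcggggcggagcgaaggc
Aurka: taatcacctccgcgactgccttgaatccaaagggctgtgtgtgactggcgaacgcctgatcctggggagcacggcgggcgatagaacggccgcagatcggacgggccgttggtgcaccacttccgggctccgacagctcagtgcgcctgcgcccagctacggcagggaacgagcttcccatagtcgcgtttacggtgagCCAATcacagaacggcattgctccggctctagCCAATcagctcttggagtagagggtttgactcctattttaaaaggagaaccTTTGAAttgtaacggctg

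The next 3, chosen by level in the same way among replication genes with an E2F element, are subunits of the replicative helicase, and their capitals mark E2F matches. Mcm6 lies at chr1:128359656-128359955, Mcm7 at chr5:138171834-138172133 and Mcm3 at chr1:20820263-20820562, all on the minus strand.
Mcm6: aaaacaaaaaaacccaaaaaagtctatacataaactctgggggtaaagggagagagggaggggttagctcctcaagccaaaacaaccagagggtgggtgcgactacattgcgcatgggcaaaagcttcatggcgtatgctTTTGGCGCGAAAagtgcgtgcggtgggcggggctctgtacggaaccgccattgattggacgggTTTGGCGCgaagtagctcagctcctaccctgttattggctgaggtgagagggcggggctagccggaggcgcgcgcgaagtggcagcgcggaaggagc
Mcm7: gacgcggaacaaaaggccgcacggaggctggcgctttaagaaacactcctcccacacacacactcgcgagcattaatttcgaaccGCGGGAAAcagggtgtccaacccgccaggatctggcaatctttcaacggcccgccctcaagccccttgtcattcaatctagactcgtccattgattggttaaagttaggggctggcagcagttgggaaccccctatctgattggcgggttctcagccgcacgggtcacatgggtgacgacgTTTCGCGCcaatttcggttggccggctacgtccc
Mcm3: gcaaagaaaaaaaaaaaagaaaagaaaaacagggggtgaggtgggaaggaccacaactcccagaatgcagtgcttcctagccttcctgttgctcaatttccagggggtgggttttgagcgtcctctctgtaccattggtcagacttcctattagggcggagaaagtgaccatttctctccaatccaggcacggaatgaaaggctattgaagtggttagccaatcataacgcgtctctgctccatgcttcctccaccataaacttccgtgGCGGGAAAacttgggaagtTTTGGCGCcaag

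Of the 17 mitotic genes with a promoter in the table, 11 (64.7%) held a CHR match, and all 11 also held CCAAT. Over all 27025 genes of the table, 20.2% held a CHR match and 7.97% held both. An E2F element was found in 1 of the 17 mitotic genes (5.88%), against 6 of 11 replication genes (54.5%), 2 of 8 G1/S genes (25.0%) and 2.6% of all genes. Median GC content was 57.5% in replication, 58.8% in mitotic and 66.7% in G1/S promoters, against 52.7% over all promoters. The shares were not matched for GC content. CCAAT alone was common, at 41.1% of all genes and 72.2% of the 36 cell cycle genes. The 6 replication genes with an E2F element were Cdc6, Cdt1, Mcm3, Mcm5, Mcm6 and Mcm7, and their log2 fold changes ran from 0.78 to 2.58 with a median of 2.37. The 5 without it, Mcm2, Pcna, Rrm1, Rrm2 and Tyms, ran from 0.08 to 2.64 with a median of 0.46. The ranges overlapped, since Mcm2 had the largest change of both sets. Mcm2 held 1 CHR match and 1 CCAAT match. Among mitotic genes the medians were 1.92 with CHR and 1.59 without. The range without CHR, 1.11 to 2.30, lay inside the range with it, 0.82 to 2.92.

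DDC livers held more transcript of most of these genes. Of the 46 genes, 40 were higher at an adjusted p below 0.05, 2 were lower (Ccnd3 and Cdk2) and 4 did not pass the test (Ccne1, Ccne2, E2f8 and Tyms). Over all 19535 tested genes, 30.2% were called higher and 26.6% lower, 56.8% in either direction. The 46 genes had a median log2 fold change of 1.68, or 3.21-fold, against a median of 0.07 over all tested genes. A rise of at least 2-fold was called for 33 of the 46, against 19.5% of all genes. All 4 DDC libraries lay above all 4 controls for 39 of the 46 genes, against 26.9% of all genes, and below for 2, against 25.7%. The 5 genes whose groups overlapped were the 4 that did not pass the test and Rrm2.

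**Figure D1:**
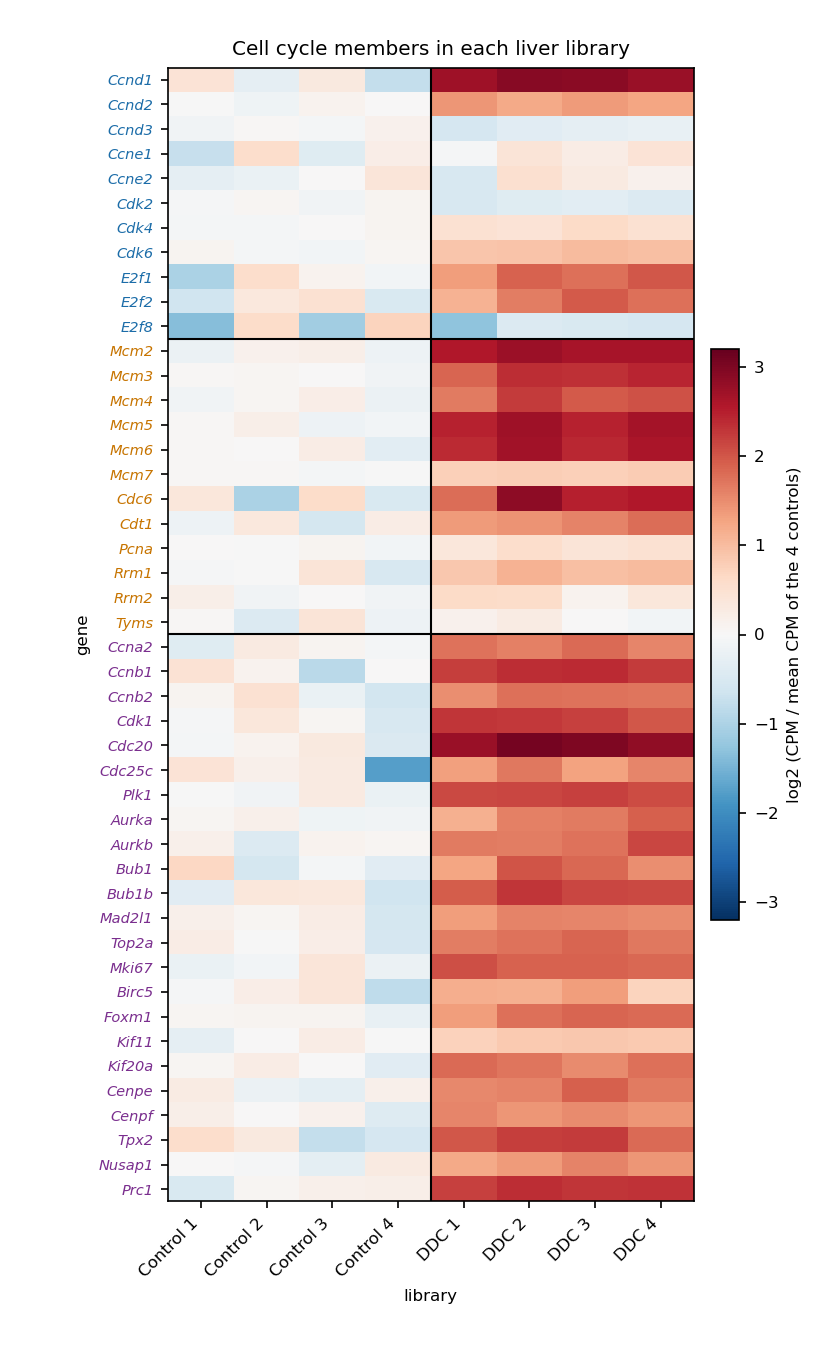
Level of each of the 46 genes (rows, in the order G1/S, replication, mitosis) in each liver library (columns), as the log2 ratio of its counts per 1000000 (CPM) to the mean CPM of the 4 controls, red above and blue below. All mitotic genes and all replication genes but Tyms are red in the 4 DDC libraries, while Ccnd3, Cdk2 and E2f8 are blue there and Ccne1 and Ccne2 are mixed.

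CPM here are scaled by trimmed mean of M values (TMM), which lets most genes stay level between groups, and fold changes are from edgeR on that scale. The factors were 0.792 to 0.816 in controls and 1.21 to 1.27 in DDC libraries. Scaling by library totals alone raised the all-gene median of the log2 fold change from 0.07 to 0.70, and the share of calls that were higher from 53.1% to 86.8%. On that scale 45 of the 46 genes were called higher and 0 lower, against 58.9% of all tested genes higher. Changes are therefore given relative to the bulk of genes, and small ones such as those of Ccnd3 and Cdk2 depend on this choice. Library totals ran from 61179103 to 81664058 counts. Over all genes, the chi-square per degree of freedom between 2 libraries of a group was 13.6 for controls 1 and 3, 62.9 for controls 2 and 4 and 164 to 223 for the other control pairs, so the controls formed 2 pairs. It was 94.4 to 105 between DDC 1 and the other DDC libraries and 16.8 to 24.0 among the others, so DDC 1 stood apart. Without DDC 1, 39 of the 46 genes were higher and 2 lower, and without controls 1 and 3, or without controls 2 and 4, 40 were higher. DDC 1 was the lowest DDC library for 32 of the 46 genes (69.6%), and for 34.8% of all tested genes. Control 4 was the lowest control for 19 of them (41.3%, against 24.0% of all).

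Whole liver is a mix of cells, and for each gene more expressing cells and more RNA per cell cannot be told apart. Markers of several cell types differed between the groups as well. The sums and calls are on the TMM scale. Summed over 6 hepatocyte markers, among them Alb and Hnf4a, levels were 124600 to 153000 CPM in controls and 56260 to 71090 in DDC livers, with all 6 called lower. Alb alone gave 116300 of the mean of 140700 CPM in controls. In the deposited values per transcript length (FPKM), without the TMM factor, Cps1 overlapped, at 558 to 699 in controls and 572 to 628 in DDC livers. The other hepatocyte markers were lower in every DDC liver than in any control there too. Sums over 6 macrophage markers were 218 to 272 CPM in controls and 1204 to 1259 in DDC livers, with all 6 called higher. For cholangiocytes, the bile duct cells, the sums were 66.8 to 145 and 699 to 1073 CPM, with 5 of 6 higher and Krt19 not passing the test. Spp1 alone gave 50.8 of the mean of 89.4 CPM in controls and 728 of 846 CPM in DDC livers. Stellate cell and fibroblast sums were 271 to 294 and 557 to 640 CPM (3 of 6 higher), and neutrophil sums 26.2 to 40.2 and 82.1 to 119 CPM (4 of 6 higher). T and NK cell sums were 3.22 to 5.15 and 8.16 to 10.9 CPM (3 of 5 tested higher), and endothelial sums 120 to 140 and 143 to 195 CPM (3 of 6 higher). B cell sums, from 4 genes, were 1.78 to 3.41 in controls and 0.994 to 1.44 CPM in DDC livers (3 of 4 lower). Erythroid precursor sums were 51.8 to 140 and 13.2 to 18.5 CPM, of which Alas2, the erythroid first enzyme of heme synthesis, made up most, and 2 of 4 tested markers were lower and 1 higher. No marker of these lists was at 0 in all libraries of a group. Which cells carried the cell cycle transcripts was not tested.

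The G1/S genes did not all rise. Of 11, 6 were higher (Ccnd1, Ccnd2, Cdk4, Cdk6, E2f1 and E2f2), 2 were lower (Ccnd3 and Cdk2), and 3 did not pass the test, with a median of 1.42-fold over the 11. Over all tested genes, 30.2% were higher and 26.6% lower. With library totals alone, where 58.9% of all tested genes were higher, 10 of the 11 were higher and 0 lower. Their summed level was 181 ± 2.35 CPM in controls and 390 ± 22.5 in DDC livers (SD, n = 4 each).

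Ccnd1, which encodes cyclin D1, the cyclin that couples growth signals to Cdk4 and Cdk6, had the largest rise of this group (ENSMUSG00000070348, chr7:144929931-144939925). Controls 1 to 4 held 37.8, 22.5, 34.1 and 16.3 CPM, and DDC 1 to 4 held 180, 209, 206 and 187 CPM. Every DDC library exceeded the highest control by more than 4-fold, and relative to its mean the spread was wider in controls (27.7 ± 9.99 CPM) than in DDC livers (196 ± 14.3 CPM). The fitted rise was 7.07-fold (log2 fold change 2.82, SE 0.25, adjusted p = 2.25e-05). Ccnd2, for cyclin D2, held 6.99, 6.45, 7.55 and 7.15 CPM in controls and 18.7, 16.2, 18.2 and 16.7 CPM in DDC livers. It rose 2.48-fold (adjusted p = 1.62e-06), with both groups tight.

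Ccnd3, for cyclin D3, held 39.5, 43.9, 41.0 and 47.0 CPM in controls and 29.6, 33.1, 35.0 and 36.1 CPM in DDC livers. The groups did not overlap and the fitted level was 1.28-fold lower (log2 fold change -0.36, SE 0.08, adjusted p = 0.00395). This direction depends on the scaling, since with library totals alone the log2 fold change was 0.27 (adjusted p = 0.0193).

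Levels of different genes were compared on the deposited FPKM, fragments per kilobase of transcript and library depth, which account for length but carry no TMM factor. On that scale Ccnd1 was 4.58 ± 1.67 in controls and 49.6 ± 3.74 in DDC livers (SD, n = 4 each). Ccnd3 was 3.79 ± 0.266 and 4.54 ± 0.468 FPKM, and Ccnd2 was 0.579 ± 0.0371 and 2.21 ± 0.165 FPKM. The share of Ccnd1 in the FPKM of the 3 D-type cyclins does not depend on scaling between libraries. It was 60.5%, 45.7%, 56.99% and 36.1% in controls 1 to 4, and 87.8%, 89.0%, 88.1% and 87.1% in DDC 1 to 4. Cyclin D1 thus went from sharing the D-type pool about evenly with cyclin D3 (43.6% ± 10.2) to most of it, while Ccnd3 fell to a share of 8.06% ± 0.654 and Ccnd2 from 6.58% ± 0.971 to 3.94% ± 0.453. Each of the 3 shares separated the groups fully (exact two-sided permutation p = 0.0286, the smallest that 4 against 4 allows, and 0.0317 after adjustment over 10 ratios and shares). These ratios and shares were not planned and use genes chosen with earlier results known, so their p-values only describe separation of the groups.

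Of the partner kinases, Cdk4 rose 1.42-fold, from 37.3 ± 1.98 to 53.0 ± 2.48 CPM (adjusted p = 6.54e-05). Cdk6 rose 1.93-fold, from 24.0 ± 1.29 to 46.2 ± 1.90 CPM (adjusted p = 1.14e-06). Cdk4 overlaps Tspan31 on the other strand by 641 bases, and Tspan31 went the other way, from 257 to 117 CPM. Per length, Cdk4 was the more abundant kinase in both groups, at 8.94 ± 0.380 against 1.33 ± 0.0586 FPKM for Cdk6 in controls, and 19.5 ± 1.29 against 3.94 ± 0.246 in DDC livers.

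Cdk2, the kinase of E- and A-type cyclins, held 23.2, 24.7, 21.9 and 25.1 CPM in controls and 16.5, 18.1, 18.9 and 17.5 CPM in DDC livers. All DDC libraries were below all controls, by a fitted 1.34-fold (log2 fold change -0.42, SE 0.07, adjusted p = 9.21e-04). With library totals alone it turned to 0.21 (adjusted p = 0.0359), as for Ccnd3. The E-type cyclins did not pass the test. Ccne1 held 2.54, 6.31, 3.29 and 4.96 CPM in controls and 4.14, 5.72, 5.01 and 5.78 CPM in DDC livers, so that its controls spanned the DDC range (log2 fold change 0.27, SE 0.27, adjusted p = 0.416). Ccne2 held 3.92, 4.14, 4.79 and 6.22 CPM in controls and 3.37, 6.77, 5.77 and 5.29 CPM in DDC livers (log2 fold change 0.15, SE 0.24, adjusted p = 0.595). Their approximate 95% intervals of the log2 fold change ran from -0.26 to 0.81 and from -0.31 to 0.61, which leave room for a rise or a fall. Ccne2 also overlaps Ints8, a more abundant gene on the other strand, over 5622 bases.

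**Figure D2:**
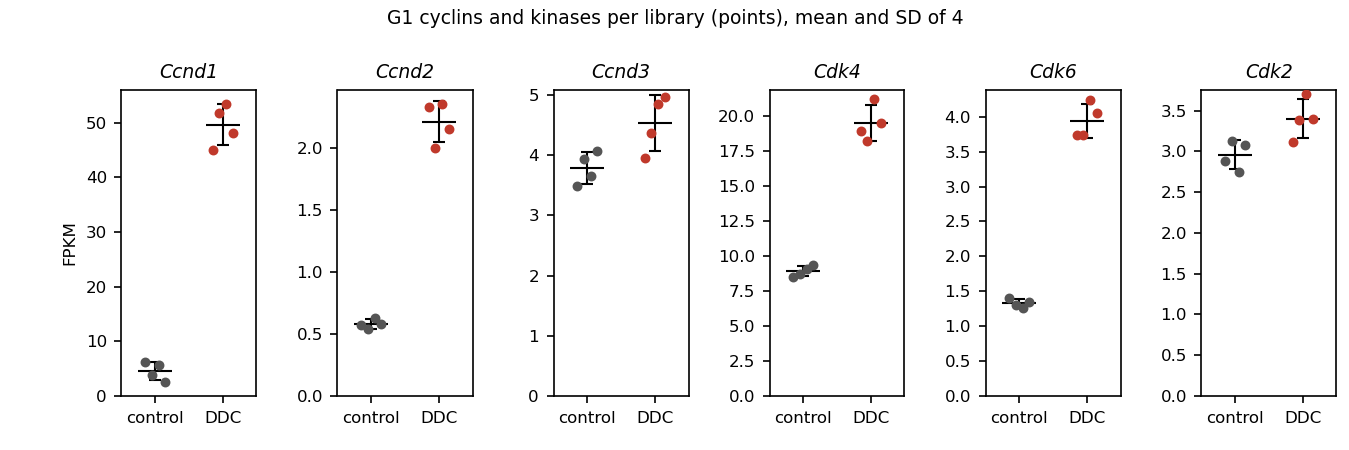
FPKM of 6 G1 cyclins and kinases (y axes, each from 0) in control (grey) and DDC (red) livers, with 1 point per library and the mean and SD of 4. Ccnd1 rises from 4.58 to 49.6 FPKM, while Ccnd3 and Cdk2 differ little and lie slightly higher in DDC livers on this scale, against slightly lower in TMM-scaled CPM.

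The activating factors E2f1 and E2f2 rose and the repressor E2f8 did not pass the test. E2f1 held 1.38, 4.10, 2.99 and 2.60 CPM in controls and 6.94, 10.3, 9.45 and 11.04 CPM in DDC livers, a 3.41-fold rise (adjusted p = 7.47e-04). E2f2 held 0.699, 1.352, 1.503 and 0.764 CPM in controls and 2.32, 3.36, 4.17 and 3.68 CPM in DDC livers, a 3.13-fold rise (adjusted p = 0.00173). For both genes every DDC library was above every control. E2f8, an atypical repressor that acts in S phase and in polyploid hepatocytes, divided the controls (ENSMUSG00000046179, chr7:48866429-48881596). Controls 1 and 3 held 2.29 and 2.72 CPM, controls 2 and 4 held 8.82 and 9.66 CPM, and DDC 1 to 4 held 2.40, 4.36, 4.17 and 4.04 CPM. The DDC livers thus lay between, with DDC 1 at the level of the low controls (log2 fold change -0.65, SE 0.48, adjusted p = 0.27). Without controls 1 and 3 the log2 fold change was -1.31 (adjusted p = 0.00433), and without controls 2 and 4 it was 0.57 (adjusted p = 0.138). Gm2788, which overlaps E2f8 on the other strand over 3639 bases, held 0.834, 4.33, 1.92 and 8.63 CPM in controls and 0.696 to 1.43 CPM in DDC livers, and reads of the 2 genes may not have been told apart. The E2f1 to E2f8 ratio in FPKM was 0.463 to 1.89 in controls and 3.92 to 5.06 in DDC livers (exact permutation p = 0.0286, adjusted p = 0.0317).

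Most genes of replication licensing and DNA synthesis rose. Of the 12 replication genes 11 were higher, against 30.2% of all tested genes, with a median of 3.42-fold over the 12. A rise of at least 2-fold was called for 7 of the 12, against 19.5% of all tested genes. Only Tyms did not pass the test. The summed level was 112 ± 7.69 CPM in controls and 266 ± 19.9 in DDC livers (SD, n = 4 each).

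Mcm2 to Mcm7 encode the 6 subunits of the MCM ring, the core of the helicase that is loaded on origins in G1. Mcm2 held 3.14, 3.94, 4.05 and 3.18 CPM in controls and 21.0, 23.8, 22.3 and 22.4 CPM in DDC livers. It rose 6.25-fold (log2 fold change 2.64, SE 0.11, adjusted p = 1.21e-07), and the spread within each group was small against the difference. Mcm5 rose 5.98-fold from 3.18 ± 0.354 to 19.1 ± 1.66 CPM, Mcm6 5.78-fold from 6.54 ± 1.07 to 37.8 ± 3.93 CPM, Mcm3 4.80-fold from 5.21 ± 0.258 to 25.0 ± 4.24 CPM and Mcm4 3.97-fold from 4.98 ± 0.634 to 19.8 ± 3.12 CPM. DDC 1 was the lowest DDC library, or shared the lowest value, for these 5 subunits, yet lay far above every control.

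Mcm7 behaved differently from the other 5 subunits. It held 18.4, 18.3, 17.0 and 17.6 CPM in controls and 30.1, 30.6, 30.4 and 31.4 CPM in DDC livers, a rise of 1.72-fold (adjusted p = 2.38e-06). Per length, Mcm7 stood well above the rest in controls, at 3.12 ± 0.126 FPKM against 0.397 ± 0.0614 for Mcm2, the lowest, and 1.09 ± 0.191 for Mcm6. In DDC livers Mcm7 was at 8.25 ± 0.277 FPKM, within the range from Mcm2 at 3.84 ± 0.195 to Mcm6 at 9.67 ± 0.958. The ratio of the highest to the lowest of the 6 subunits fell from 7.99 ± 1.26 to 2.52 ± 0.167, and the ratio of Mcm7 to the median of the other 5 from 3.13 ± 0.364 to 1.28 ± 0.196 (exact permutation p = 0.0286, adjusted p = 0.0317 for each, n = 4 each). Mcm7 overlaps Cops6 (64 bases) and Ap4m1 (421 bases) on the other strand, at 78.3 and 23.8 CPM in controls and 51.4 and 16.3 CPM in DDC livers.

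**Figure D3:**
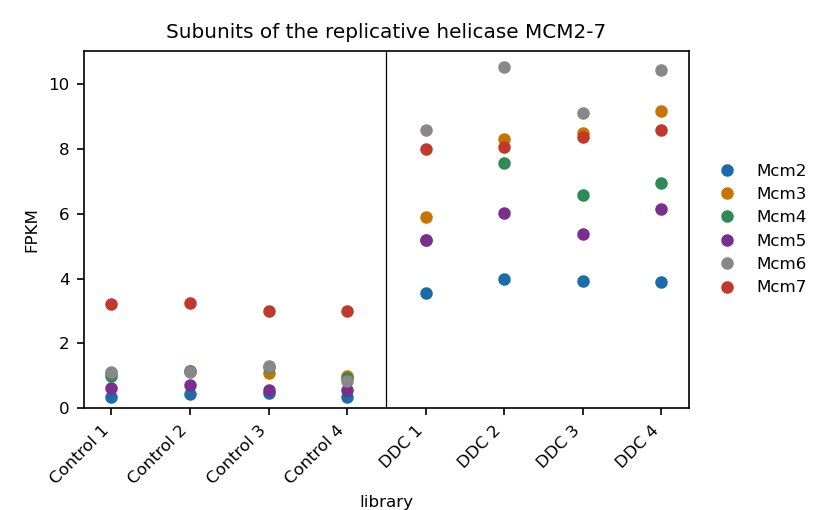
FPKM (y axis) of the 6 MCM subunits in each of the 8 liver libraries (x axis), 1 colour per subunit. In controls Mcm7 (red) stands at 3.00 to 3.24 FPKM above the other 5 subunits, and in DDC livers it lies within their range.

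The 2 loading factors of the MCM ring rose as well. Cdc6 held 1.07, 0.412, 1.26 and 0.599 CPM in controls and 2.85, 6.06, 4.70 and 4.92 CPM in DDC livers, a rise of 5.54-fold (log2 fold change 2.47, SE 0.39, adjusted p = 4.38e-04). DDC 1 had less than the other DDC livers and more than any control. Cdt1 rose 2.94-fold, from 3.37 ± 0.912 to 9.90 ± 1.30 CPM (adjusted p = 1.47e-04). Its inhibitor geminin, Gmnn, rose less (log2 fold change 0.44, adjusted p = 0.0343), and the Cdt1 to Gmnn ratio in FPKM went from 0.236 ± 0.101 to 0.491 ± 0.0572 (exact permutation p = 0.0286, adjusted p = 0.0317, n = 4 each).

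Genes of DNA synthesis and nucleotide supply had smaller fold changes than most loading genes. Pcna, the sliding clamp of DNA polymerases, had the highest FPKM of the 12 in both groups (12.6 ± 0.697 and 26.7 ± 1.43). It held 39.6, 38.3, 41.0 and 36.9 CPM in controls and 50.5, 57.1, 51.8 and 55.1 CPM in DDC livers, a rise of 1.38-fold (adjusted p = 1.34e-04) with no overlap. Rrm1, the large subunit of ribonucleotide reductase, rose 1.99-fold from 12.1 ± 3.12 to 24.1 ± 1.67 CPM (adjusted p = 6.93e-04). Rrm2, its small subunit and the one tied to S phase, held 10.5, 8.51, 9.21 and 8.43 CPM in controls and 13.96, 13.8, 9.83 and 11.7 CPM in DDC livers. Its groups overlapped at control 1 and DDC 3, and the rise of 1.346-fold (adjusted p = 0.0204) was lost without control 2, control 4, DDC 1 or DDC 2, at adjusted p-values of 0.0531 to 0.0641. The Rrm2 to Rrm1 ratio in FPKM was 3.14 ± 0.751 in controls and 2.04 ± 0.358 in DDC livers, with an overlap (exact permutation p = 0.0571, the same after adjustment). Tyms, thymidylate synthase, held 6.35, 4.57, 8.11 and 5.51 CPM in controls and 6.71, 7.30, 6.20 and 5.77 CPM in DDC livers, with the DDC values inside the control range (log2 fold change 0.08, approximate 95% interval -0.27 to 0.44, adjusted p = 0.713).

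All 23 mitotic genes were higher in DDC livers, 22 of them by at least 2-fold, and none overlapped between groups. Of all tested genes 30.2% were higher, 19.5% by at least 2-fold, and 26.9% had every DDC library above every control. The 23 genes had a median of 3.26-fold, and their summed level was 60.1 ± 7.05 CPM in controls and 209 ± 7.85 in DDC livers, a ratio of 3.47 (SD, n = 4 each). Levels were low in both groups, with a median over the 23 genes of 0.379 FPKM in controls and 1.97 in DDC livers.

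Among regulators of entry into and exit from mitosis, Cdc20, the activator of the anaphase-promoting complex, had the largest rise of all 46 genes. It held 1.49, 1.67, 1.92 and 1.12 CPM in controls and 10.6, 12.9, 12.3 and 11.1 CPM in DDC livers, a rise of 7.56-fold (log2 fold change 2.92, SE 0.18, adjusted p = 8.85e-07). A more abundant neighbour, Elovl1, overlaps it by 53 bases on the other strand and went from 33.2 to 53.9 CPM. Cdk1, the mitotic kinase, held 2.35, 3.12, 2.53 and 1.69 CPM in controls and 11.8, 11.5, 11.1 and 9.66 CPM in DDC livers, a rise of 4.55-fold (adjusted p = 7.17e-06). The Cdk1 to Cdk2 ratio in FPKM went from 0.128 ± 0.0321 to 0.785 ± 0.0890 (exact permutation p = 0.0286, adjusted p = 0.0317, n = 4 each).

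The partner cyclins of Cdk1 all rose. Ccnb1 held 2.00, 1.59, 0.799 and 1.47 CPM in controls and 6.81, 7.49, 7.60 and 6.91 CPM in DDC livers, a rise of 4.92-fold (adjusted p = 4.47e-05). Ccnb2 held 3.07, 4.04, 2.45 and 1.90 CPM in controls and 8.04, 9.74, 9.60 and 9.44 CPM in DDC livers, a rise of 3.21-fold (adjusted p = 1.33e-04). Ccnb2 and Cdc20 had the highest FPKM of the 23 in DDC livers, at 7.18 ± 0.674 and 7.49 ± 0.676, from 1.46 ± 0.482 and 0.640 ± 0.145 in controls. Ccna2, the cyclin of late S phase and G2, rose 3.22-fold from 3.148 ± 0.607 to 10.2 ± 0.833 CPM (adjusted p = 1.49e-05). The pseudogenes Ccnb1-ps and Ccnb2-ps stood at 0.148 and 1.10 CPM in controls and 0.364 and 0.544 CPM in DDC livers. The level of Ccnb2-ps was thus not negligible beside that of Ccnb2 in controls.

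Cdc25c, a phosphatase that activates Cdk1, was the least abundant of the mitotic genes. It held 0.563, 0.470, 0.514 and 0.124 CPM in controls and 1.03, 1.349, 1.02 and 1.23 CPM in DDC livers, with control 4 well below the others. The log2 fold change was 1.47 (SE 0.44, adjusted p = 0.0181). Foxm1, the transcription factor of the mitotic programme, rose 3.27-fold, from 2.55 ± 0.271 to 8.36 ± 1.27 CPM (adjusted p = 1.45e-05).

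The mitotic kinases, survivin and the checkpoint genes rose 2.16-fold to 4.38-fold. Plk1 held 1.38, 1.29, 1.71 and 1.22 CPM in controls and 6.05, 6.20, 6.36 and 5.94 CPM in DDC livers, a rise of 4.38-fold (adjusted p = 4.27e-06). Aurkb, the kinase of the chromosomal passenger complex, rose 3.49-fold (adjusted p = 7.03e-05), and Aurka, the spindle pole kinase, rose 3.04-fold (adjusted p = 6.11e-05). Birc5, the passenger subunit survivin, rose less, by 2.16-fold (adjusted p = 0.00511). Of the spindle checkpoint genes, Bub1b rose 4.36-fold, Bub1 3.21-fold and Mad2l1 2.83-fold, with adjusted p-values of 6.78e-05, 0.0016 and 4.82e-05.

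Spindle and kinetochore genes rose 1.76-fold to 4.90-fold. Prc1, which bundles the microtubules of the central spindle, held 1.71, 2.49, 2.68 and 2.71 CPM in controls and 10.9, 12.4, 11.7 and 12.0 CPM in DDC livers, a rise of 4.90-fold (adjusted p = 2.06e-06). The whole of Prc1 is overlapped on the other strand by Rccd1, over 21810 bases, which went from 2.06 to 6.39 CPM. Tpx2, an activator of Aurora A, rose 4.20-fold, Kif20a, a kinesin of cytokinesis, 3.26-fold, the kinetochore proteins Cenpe and Cenpf 3.23-fold and 2.79-fold, and the spindle protein Nusap1 2.64-fold. Kif11, the motor that separates the spindle poles, had the smallest rise of the 23, of 1.76-fold from 3.33 ± 0.491 to 5.87 ± 0.240 CPM (adjusted p = 0.00117).

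Mki67, which encodes the proliferation antigen Ki-67, held 6.81, 7.39, 10.3 and 6.86 CPM in controls and 32.9, 29.0, 29.0 and 28.2 CPM in DDC livers (ENSMUSG00000031004, chr7:135689784-135716361). The lowest DDC liver had far more than the highest control, and DDC 1 was the highest here, unlike for most of the 46 genes. The rise was 3.79-fold (log2 fold change 1.92, SE 0.14, adjusted p = 2.54e-06). Top2a, the topoisomerase that untangles sister chromatids, rose 3.32-fold from 6.26 ± 1.396 to 20.8 ± 1.32 CPM (adjusted p = 1.21e-05).

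**Figure D4:**
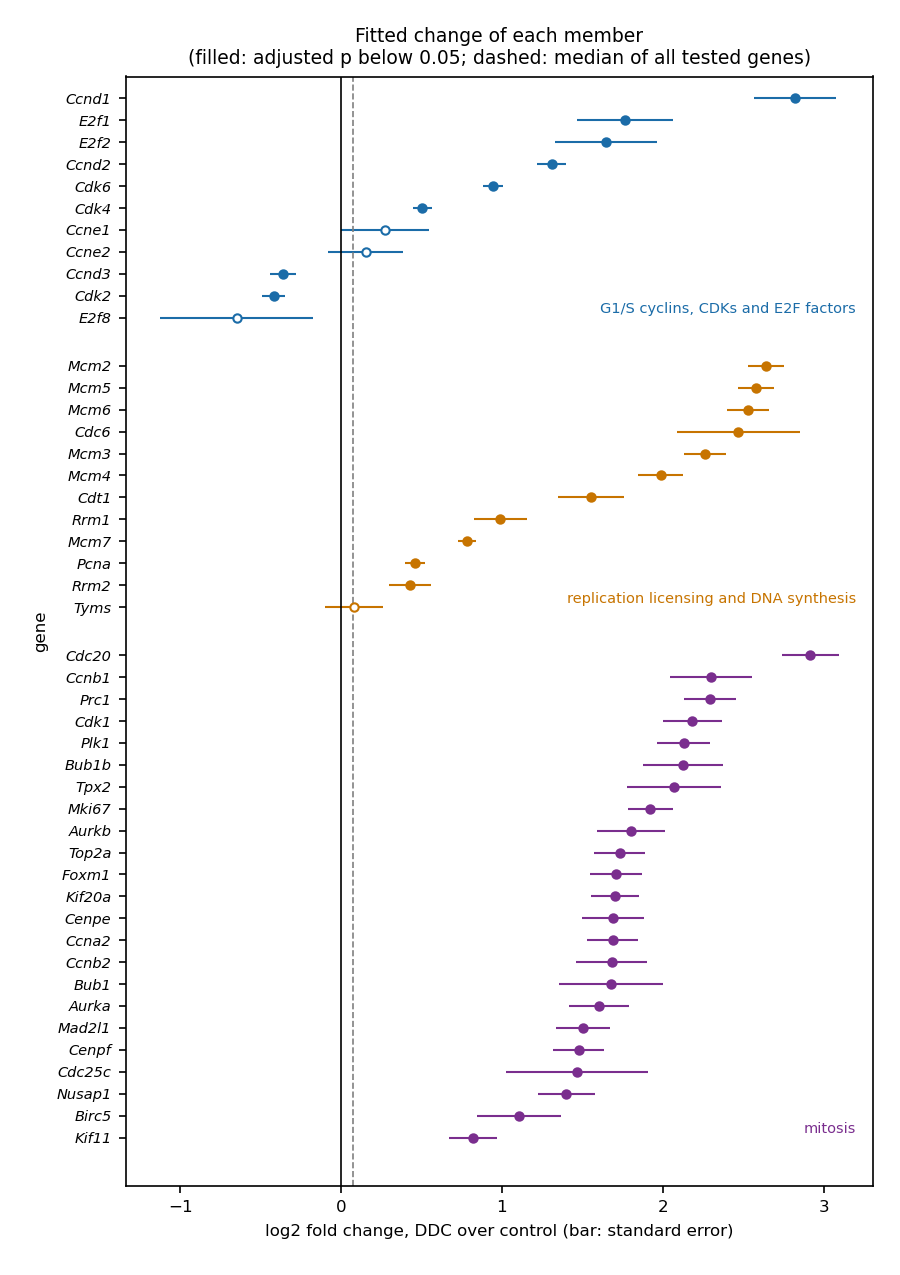
Fitted log2 fold change of each of the 46 genes (x axis, DDC over control, bar the standard error), grouped by role and ordered by size. Filled points pass an adjusted p of 0.05, the dashed line is the median of all tested genes at 0.07, and the 23 mitotic genes lie between 0.82 and 2.92.

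Of the 46 genes, 20 overlap another gene of the annotation and 18 overlap one on the other strand, 6 of them a gene of at least their own level. Among these, Kif20a overlaps Cdc23 (11.6 to 18.75 CPM) over 2327 bases. Ccna2 overlaps Exosc9 (8.03 to 14.4 CPM) over 863 bases. The sources used here do not say if reads were counted by strand, and the part of shared reads in these values was not tested.

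Other genes of the pathway were taken from 11 lists by function, with 146 genes in all. Of these, 92 were higher, 22 lower and 32 did not pass the test, against 30.2% of all tested genes higher and 26.6% lower. The median log2 fold change of the 146 genes was 0.70, lower than the 1.68 of the 46 genes above. With library totals alone 124 of the 146 genes were higher and 5 lower, against 58.9% of all tested genes higher. On that scale the lists of mitotic entry and exit, origins, the replication fork, and other E2F and DP factors gave 10, 15, 20 and 5 higher and 0, 1, 1 and 1 lower.

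Lists of mitotic function held mostly higher genes. All 16 genes of cytokinesis and mitotic kinesins were higher, with a median log2 fold change of 1.57, led by Kif2c, a microtubule depolymerase (4.64-fold, 1.83 ± 0.210 to 8.48 ± 2.56 CPM, adjusted p = 4.70e-05), and Ect2, which activates the contractile ring (4.09-fold, adjusted p = 1.05e-04). Of 22 kinetochore and centromere genes 16 were higher and none lower, with a median of 1.19, led by Cenph (log2 fold change 3.02, SE 0.72, adjusted p = 0.00541), at only 0.212 ± 0.165 CPM in controls and 1.74 ± 0.189 in DDC livers, and by the checkpoint kinase Ttk (2.14, adjusted p = 0.00144). Of 12 other regulators of mitotic entry and exit 7 were higher and 2 lower. Ube2c, the ubiquitin-conjugating enzyme of the anaphase-promoting complex, rose 6.38-fold from 1.36 ± 0.215 to 8.70 ± 0.488 CPM (adjusted p = 6.47e-07), and Pkmyt1, an inhibitory kinase of Cdk1, rose 5.32-fold (adjusted p = 2.08e-05). Wee1, another inhibitory kinase of Cdk1, was 1.53-fold lower (adjusted p = 0.00646), a call that was lost with library totals alone (log2 fold change 0.01, adjusted p = 0.947).

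Complexes that also serve outside mitosis held genes called in both directions. Of 17 cohesin and condensin genes 9 were higher and 5 lower, against 30.2% of all tested genes higher and 26.6% lower. The condensin II subunit Ncapg2 rose 6.96-fold from 1.83 ± 0.827 to 12.7 ± 0.835 CPM (adjusted p = 5.07e-05), and Esco2, the cohesin acetyltransferase of S phase, rose 4.41-fold (adjusted p = 1.47e-04). The cohesin subunit Stag2 was 1.81-fold lower (69.5 ± 3.38 to 38.4 ± 2.20 CPM, adjusted p = 2.44e-06), and its ring partners Smc1a, Smc3 and Rad21 were lower too, at log2 fold changes of -0.34, -0.54 and -0.31, each of which turned positive with library totals alone. On that scale 14 of the 17 were higher and 1 lower. Of 13 subunits and coactivators of the anaphase-promoting complex 8 were higher and 3 lower, with a median of 0.26. Anapc4 rose 2.19-fold (adjusted p = 4.66e-06) and Anapc10 1.66-fold (adjusted p = 0.00751), while Anapc13 was 1.65-fold lower (adjusted p = 0.00158). With library totals alone 11 of the 13 were higher and 0 lower.

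Replication genes beyond the 12 rose less uniformly. Of 16 genes of origin recognition and firing 12 were higher and 2 lower, with a median of 0.67. Gins2, a subunit of the active helicase, rose 7.19-fold (2.45 ± 1.67 to 17.6 ± 5.02 CPM, adjusted p = 0.00194). Mcm10, an initiation factor that helps to activate the MCM helicase, went the other way. It held 64.6, 126, 62.2 and 105 CPM in controls and 8.66, 7.74, 7.19 and 8.62 CPM in DDC livers, 11.1-fold lower (log2 fold change -3.47, SE 0.25, adjusted p = 5.53e-06). Controls 2 and 4 were the high ones, as for E2f8, but every control was far above every DDC liver. Alas2, named above, was also higher in controls 2 and 4 (134 and 117 CPM) than in controls 1 and 3 (44.7 and 49.4 CPM). Its part in the Mcm10 values was not tested. Such splits were common. Controls 2 and 4 both lay above controls 1 and 3 for 21.9% of all tested genes, and both below for 25.9%. Among the cell cycle genes chosen by name, 5 split the first way, E2f8 among them, and 13 the other way. A shared split thus does not single out E2f8, Mcm10 and Alas2. With library totals alone the log2 fold change of Mcm10 was -2.85, and no gene of the annotation overlaps it. Its control level of 9.04 FPKM was high beside the list median of 1.23, and which part of the gene the reads came from was not analysed here. Of 22 genes of the replication fork and nucleotide supply 15 were higher and 2 lower, with a median of 0.69. Pole, the catalytic subunit of DNA polymerase epsilon, rose 4.23-fold (adjusted p = 2.59e-05) and Fen1, the flap endonuclease, 3.14-fold (adjusted p = 1.41e-05). Tk1, thymidine kinase 1, was 1.93-fold lower (36.3 ± 2.63 to 18.9 ± 2.37 CPM, adjusted p = 2.30e-05), and overlaps the more abundant Afmid (130 to 59.7 CPM) by 169 bases on the other strand. Gm20708, also on the other strand, overlaps Tk1 over 10567 bases. The mean of Gm20708 went from 24.5 to 12.3 CPM, with only 1.22 CPM in control 4 and 0.232 CPM in DDC 3.

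Inhibitors of the cycle were not uniformly lower. Of 7 CDK inhibitors 5 were higher, against 30.2% of all tested genes, and none lower, with a median log2 fold change of 1.04. Cdkn2a, which encodes p16 and p19ARF, went from 0.0776, 0.118, 0.0761 and 0 CPM in controls to 0.284, 0.687, 0.502 and 0.4995 CPM in DDC livers (log2 fold change 2.82, SE 0.73, adjusted p = 0.00848), with few reads behind the control values. Cdkn2b, for p15, rose 3.39-fold (adjusted p = 0.0106), and Cdkn1a, for p21, had a log2 fold change of 1.28 (adjusted p = 1.55e-04). Ccnd1 rose more than Cdkn1a, and their ratio in FPKM went from 1.23 ± 0.414 to 3.63 ± 0.833 (exact permutation p = 0.0286, adjusted p = 0.0317, n = 4 each). The 5 antiproliferative genes of the BTG/TOB family and cyclin G2 gave 3 lower and none higher, with a median of -0.74. Of all tested genes 26.6% were lower and 30.2% higher. Tob1 was 2.21-fold lower (232 ± 35.0 to 105 ± 7.02 CPM, adjusted p = 1.50e-05) and Ccng2, cyclin G2, 1.85-fold lower (adjusted p = 2.22e-04). With library totals alone 1 of the 5 was lower.

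The lists of upstream factors held genes called in both directions, against 30.2% of all tested genes higher and 26.6% lower. The median log2 fold change over all tested genes was 0.07. Of 9 pocket protein and MuvB genes 1 was higher and 4 lower, with a median of -0.16. The higher one was Rbl1, for p107, itself a known E2F target, which rose 4.13-fold from 2.43 ± 0.387 to 10.04 ± 1.10 CPM (adjusted p = 3.58e-06). Lin52, a core MuvB subunit, was 1.81-fold lower (adjusted p = 3.83e-05), a call lost with library totals alone (adjusted p = 0.0614). With totals alone the list gave 5 higher and 0 lower, against 58.9% of all tested genes higher. Of 7 other E2F and DP factors 3 were higher and 1 lower, with a median of 0.33. E2f3 rose 1.76-fold (adjusted p = 0.00599), and the dimer partner Tfdp2 was 1.83-fold lower (adjusted p = 1.56e-05).

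**Figure D5:**
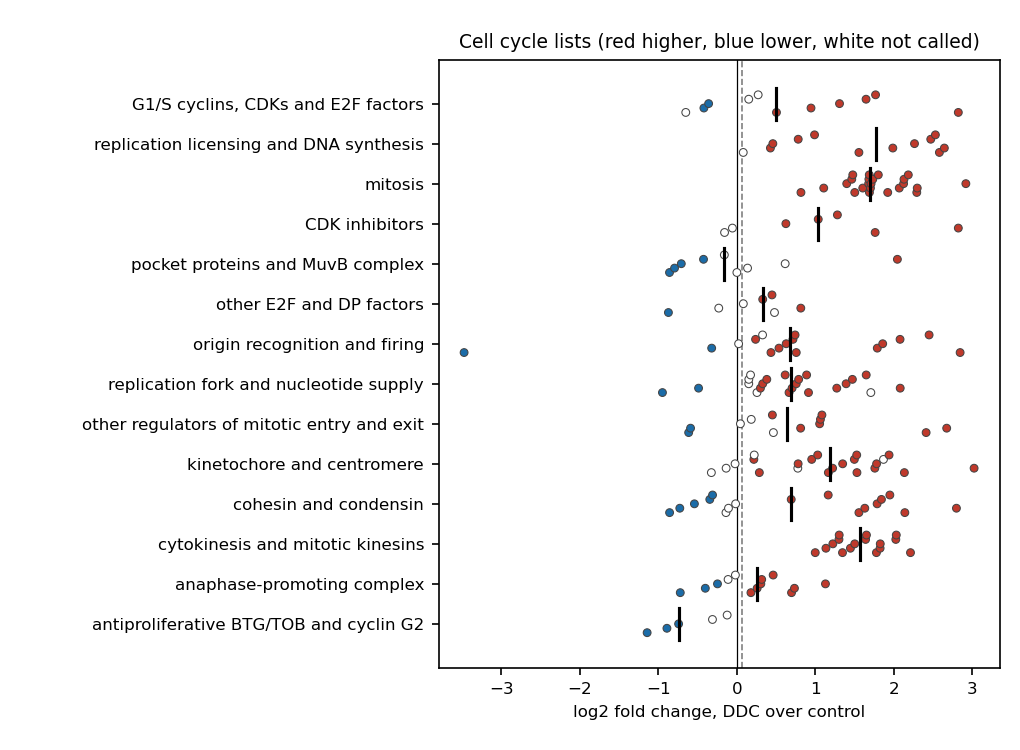
Fitted log2 fold change (x axis, DDC over control) of every gene of the 3 role groups and the 11 other cell cycle lists (rows), with 1 point per gene, red where called higher, blue where called lower and white where not called, and a bar at the list median. Mitosis and cytokinesis lie wholly above 0, with medians of 1.70 and 1.57, and the point at the far left is Mcm10 at -3.47.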

How the data were processed

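Liver RNA of 4 control and 4 DDC mice was measured. The deposited table gives raw counts per gene, and the deposited FPKM are the authors' values per transcript length and depth. Per the labels' protocols, polyadenylated RNA was used, second strands were made with dUTP and reads were paired. The builds GRCm38 and mm10 and the tools HISAT2, StringTie, cutadapt, FastQC and DESeq2 are named, without versions, per the submitters' processing notes.

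Counts of all 8 libraries were tested with edgeR 4.0.16 in R 4.3.3 (TMM, filterByExpr, robust quasi-likelihood, no covariate), two-sided, with Benjamini-Hochberg adjustment over all 19535 tested genes at 0.05. All 46 cell cycle genes passed the filter. CPM are TMM-scaled counts, and SE are on the log2 scale. Intervals include the spread between mice. They use the SE of that fit with a normal quantile, so with 4 mice a group they are approximate and somewhat too narrow. Library totals were 61179103 to 81664058 counts. For ratios of deposited FPKM the exact permutation test, two-sided, used all 70 assignments. The ratios were not planned ahead, and their p-values are descriptive. Libraries of a group differed by more than sampling noise. The labels name the mice biological replicates.

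The genes and lists were chosen with earlier results of these data known. Text names follow a rule: in each role group the 4 called genes with the largest change and the 2 of highest FPKM, every gene called lower or not called, and Mki67, and in each list the 2 largest called changes and the largest against the majority. Other names were added after their values were seen.

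On simulated counts for DDC against control, with 19078 genes tested, the recovered genes were 14 of 50 at a fold of 1.5, 31 of 50 at 2, 47 of 50 at 4 and 27 of 50 at 0.5. Of 124 calls, 5 were false. In the simulation 50 genes were changed at each fold and all others stayed level, while 56.8% of tested genes were called in the data. Recovery and false calls in the data may therefore differ.

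Alternatives were library totals alone, DESeq2 size factors, upper-quartile factors, totals without the 20 most abundant genes, other count filters, DESeq2 1.42.0, limma 3.58.1 with voom, limma on log2 of the deposited FPKM with pseudocounts of 0.1 and 1, a replicate block, and the omission of each library in turn. Leaving out 2 controls at once was added after seeing the data.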

Additional observations from a re-analysis of the deposited data

Results flagged for a closer look

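With 4 libraries a group, a library was called far from the others where its gap to the nearest, as a share of the range, exceeded Dixon's critical value. This held for 4 of 116 groups of values, and chance gives about 1 in 20. E2f8 in DDC 1 was at 2.40 CPM, against 4.04 to 4.36 in the other DDC livers. Mki67 in control 3 was at 10.3 CPM, against 6.81 to 7.39 in the other controls. Foxm1 in control 4 was at 2.15 CPM, against 2.66 to 2.70. The cholangiocyte marker sum in control 2 was 145 CPM, against 66.8 to 76.4 in the other controls.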

How the results depend on the processing

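Each of the 46 genes was recomputed under 22 alternatives, and 38 genes kept their direction and their side of the threshold in all of them. Of the 40 genes called higher, 38 were called higher under every alternative, and the exceptions were Rrm2 and Cdc25c. Scaling moved the counts most. In the order library totals alone, totals without the 20 most abundant genes, limma on log2(FPKM + 0.1), on log2(FPKM + 1) and on log2(FPKM + 0.1) without a filter, 11505, 11074, 11581, 11639 and 12283 of all genes were higher, against 5893 in the main test, and 1750, 1893, 1821, 1809 and 1745 lower, against 5205. In these 5 settings 45, 44, 45, 45 and 43 of the 46 genes were higher and 0 were lower. Ccnd3 turned to log2 fold changes of 0.27, 0.22, 0.25, 0.21 and 0.25, and Cdk2 to 0.21, 0.16, 0.19, 0.15 and 0.19. Ccne1, Ccne2 and Tyms did not pass in the main test and passed with library totals alone (adjusted p = 0.0168, 0.0146 and 0.00646).

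Leaving out 1 library gave 39 to 40 of the 46 genes higher and 2 lower, with 5039 to 6228 of all genes higher and 4593 to 5532 lower, and E2f8 moved most, by 0.34 on the log2 scale. Without controls 1 and 3, 40 were higher and 3 lower, and without controls 2 and 4, 40 and 2, where Rrm2 was lost (adjusted p = 0.147) and Ccne1 passed (adjusted p = 0.0164).

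The replicate numbers did not pair the libraries, with correlations of deviations of -0.24, -0.21, 0.03 and -0.06 between libraries of the same number. With the replicate block, 4810 of all genes were higher and 4654 lower, and 39 and 2 of the 46, since Cdc25c did not pass (log2 fold change 1.59, adjusted p = 0.0504).

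Counts were lowest for Cdc25c, with 6 in control 4. In the simulation 14 of 50 changes of 1.5-fold were recovered. In the data, some changes under 2-fold were called, such as that of Cdk4 at 1.42-fold, and others may have been missed.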
